A study of Mus musculus with 16 samples.

Results

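The small heat shock genes of muscle, Hspb1, Hspb2, Hspb3, Hspb6, Hspb7, Hspb8 and Cryab, were followed in C2C12 myotubes with and without electrical pulse stimulation. They were picked out by gene symbol, with earlier results of these data known, and are 7 of the 48432 genes in the deposited table. C2C12 is an established mouse cell line of myoblasts (here at passages 4 to 8) that was kept for 5 days in differentiation medium, until it had formed myotubes able to contract. Control cultures received no stimulation. The other group (EPS) received 6 ms pulses at 1 Hz and 2.75 V/mm, a duty cycle of 0.6%, with the polarity reversed at 0.5 Hz. The sources used here do not give how long the pulses lasted. Total RNA was sequenced from 4 libraries in each group, each run on 2 lanes. The labels name no separate cultures for the libraries, so a p-value covers only the spread among these libraries, which may be technical.

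Small heat shock proteins share an alpha-crystallin domain and assemble into oligomers that hold unfolding proteins without using ATP. Hspb1 (called Hsp25 in mouse), Cryab (alpha-B-crystallin) and Hspb8 are found in many tissues. Hspb2, Hspb3, Hspb6 and Hspb7 are concentrated in heart and skeletal muscle, where the family associates with desmin, actin, titin and filamin C. Heat shock factor 1 (HSF1), a transcription factor that binds inverted repeats of the letters GAA, drives some members in stress, while others are expressed with the muscle differentiation programme.

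Levels are given as fragments per 1 M fragments of the scaled library (CPM, where M is 10 to the power of 6). Control replicate 2 held only 0.354 M fragments, against 12.6 to 20.7 M in the other 7 libraries, so 3 fragments equal 8.52 CPM in it and at most 0.241 CPM elsewhere. All 7 genes passed the filter on low counts. Fold changes, given as log2 of EPS over control with the standard error (SE), come from edgeR's quasi-likelihood test with Benjamini-Hochberg adjustment over 13987 genes, and 0.05 was the threshold for the adjusted p.

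Hspb1, Cryab and Hspb8 were higher in EPS, and the other 4 genes did not pass the test. So 3 of 7 members were called higher and 0 of 7 lower, where 2.30% of all tested genes were called higher and 0.758% lower (3.06% in all). Also at an unadjusted p under 0.05 and by DESeq2, 0 members were lower. Over all tested genes, an unadjusted p under 0.05 was reached by 12.2% that were higher and 6.33% that were lower, and DESeq2 called 4.62% higher and 2.14% lower. In these 3 genes each EPS library also lay above each control library, which held for 9.32% of all tested genes, while 0 members had all EPS libraries below all controls, as 4.83% of genes had (14.1% in either direction). The median log2 fold change of the 7 members was 0.44, against 0.01 for all tested genes. In bulk RNA, fewer cells of a type and less RNA per cell cannot be told apart. Without the shallow control replicate 2, Hspb1 and Cryab were called and Hspb8 was not, a count of 2.

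**Figure D1:**
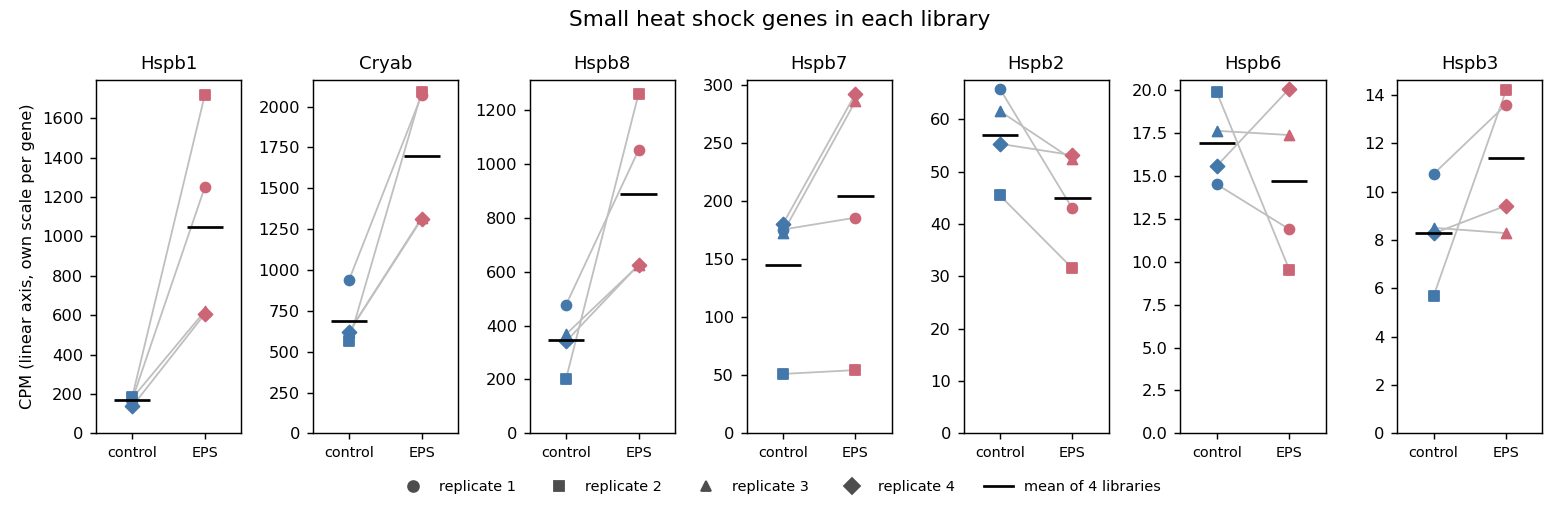
CPM of each small heat shock gene in the 4 control (blue) and 4 EPS (red) libraries, on a linear axis with its own scale for each gene; marker shapes give the replicate number, grey lines join equal numbers and black bars are means. Hspb1, Cryab and Hspb8 have all EPS points above all control points, and replicate 2 is the low point of Hspb7 in both groups.

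Hspb1 encodes the small heat shock protein that caps and stabilises actin filaments and is phosphorylated downstream of p38. Its level was 171, 185, 178 and 137 CPM in control replicates 1 to 4 and 1249.8, 1717, 621 and 606 CPM in EPS replicates 1 to 4. The controls were tightly grouped, while EPS replicates 1 and 2 stood well above EPS replicates 3 and 4. The mean went from 168 ± 21.2 CPM to 1048.5 ± 537 CPM (SD, n = 4 each). This was a log2 fold change of 2.65 (SE 0.35, adjusted p = 0.00357), a fitted 6.29-fold rise, and Hspb1 stood at rank 47 of all tested genes by adjusted p. It passed the threshold when any 1 library was left out, with log2 fold changes from 2.30 to 2.82.

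The Hspb1 gene (ENSMUSG00000004951.10) lies at chr5:135887919-135889563 on the plus strand of mm10. A processed pseudogene, Hsp25-ps1 at chr13:45078498-45079127 on the minus strand, shares 52.3% of the 31-base stretches of the Hspb1 transcripts (539 of 1030). The table credits Hsp25-ps1 with 57.4 to 73.5% as many fragments as Hspb1 in each library, and its log2 fold change was 2.68 (SE 0.34, adjusted p = 0.00321). The sources used here do not say how fragments were divided between the copies, so the level of Hspb1 is uncertain. The sum of both rose 6.30-fold by the ratio of means, from 274 ± 26.6 to 1724 ± 883 CPM (SD, n = 4 each), against 6.26-fold for Hspb1 alone. Since the copy held a similar percentage in every library, the sum must give nearly the same fold change, so it does not test how the fragments were divided. Gm9817, which overlaps the pseudogene on the other strand and shares 41.9% of these stretches, had 1 to 25 fragments in each library.

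Cryab encodes alpha-B-crystallin, a chaperone of desmin and of the sarcomere's Z-disc. It measured 939, 565, 623 and 620 CPM in the controls and 2070.1, 2088, 1317 and 1311 CPM in EPS replicates 1 to 4. Control replicate 1 was the highest control and still lay below the lowest EPS library. The mean was 687 ± 170 CPM in control and 1696 ± 442 CPM in EPS (SD, n = 4 each). The log2 fold change was 1.30 (SE 0.25, adjusted p = 0.0218), a fitted 2.46-fold rise. Cryab lost the call without control replicate 3 (adjusted p = 0.111), control replicate 4 (adjusted p = 0.0977) or EPS replicate 1 (adjusted p = 0.0795), and kept it in the other 5 of 8 such fits by edgeR's quasi-likelihood test.

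Hspb8 encodes the small heat shock protein that pairs with the co-chaperone BAG3 to pass damaged filament proteins to autophagy. Its level was 477, 202, 368 and 341 CPM in the controls and 1050.6, 1259, 623 and 625 CPM in EPS replicates 1 to 4. As for Hspb1 and Cryab, EPS replicates 1 and 2 were the highest libraries. The mean was 347 ± 113 CPM in control and 889 ± 318 CPM in EPS (SD, n = 4 each). The log2 fold change was 1.34 (SE 0.31), a fitted 2.54-fold rise, with an adjusted p of 0.0448 close to the threshold. Leaving out any control library, EPS replicate 1 or EPS replicate 2 ended the call (adjusted p from 0.069 to 0.153 by edgeR's quasi-likelihood test), and it held only without EPS replicate 3 or 4.

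The size of the rise varied with the replicate number. In replicate numbers 1, 2, 3 and 4, the log2 difference between the EPS and control libraries was 2.87, 3.22, 1.80 and 2.15 for Hspb1. For Hspb8 these differences were 1.14, 2.64, 0.76 and 0.87, and for Cryab 1.14, 1.88, 1.08 and 1.08. Number 2 had the largest difference in all 3 genes, and that number includes the shallow control library.

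The promoters of Hspb1, Hspb8 and Hspb6 are shown because each holds GAAGTTTC, a form of the inverted GAA repeat that HSF1 is known to bind, while Hspb1 and Hspb8 were called higher and Hspb6 was not. The RefSeq promoter table (GRCm38.p6, 250 bases before to 50 after an annotated start) has entries for Hspb1, Hspb3, Hspb6, Hspb7 and Hspb8, 5 of the 7 genes. The pattern marked is GAANNTTC, which reads the same on both strands and was 1 of several patterns searched. Capitals mark each match within 150 bases of each promoter, from 150 bases before the start to 1 base before it in Hspb1 and Hspb6, and from 120 before to 30 after it in Hspb8. The stretches are chr5:135887769-135887918 on the plus strand for Hspb1, chr7:30553151-30553300 on the plus strand for the second annotated start of Hspb6, and chr5:116422835-116422984 on the minus strand for Hspb8.
Hspb1: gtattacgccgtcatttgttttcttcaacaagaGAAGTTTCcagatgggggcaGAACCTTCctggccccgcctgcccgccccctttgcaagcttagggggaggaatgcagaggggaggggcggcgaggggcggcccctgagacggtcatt
Hspb8: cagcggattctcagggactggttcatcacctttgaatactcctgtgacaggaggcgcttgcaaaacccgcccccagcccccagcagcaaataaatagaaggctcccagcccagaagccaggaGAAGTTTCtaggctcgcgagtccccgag
Hspb6: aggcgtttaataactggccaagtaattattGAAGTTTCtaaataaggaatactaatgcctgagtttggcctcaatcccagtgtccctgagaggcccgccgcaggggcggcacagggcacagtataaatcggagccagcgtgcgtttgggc
Hspb1 has 2 matches, GAAGTTTC from -117 to -110 and GAACCTTC from -97 to -90. The match lies at -120 to -113 in Hspb6 and at +3 to +10 in Hspb8, just inside the transcript. Hspb3 has GAATTTTC from -224 to -217, and no match was found in the window of Hspb7. So 4 of the 5 genes hold GAANNTTC in a window, where 7.86% of the 32851 promoters in the table do. That share is per promoter (of 27025 genes), and a gene may have more than 1, as Hspb6 does. GAAGTTTC itself, searched on both strands, is in 1.21% of them. A match is a description of the letters in the window, and binding was not measured.

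Hspb2 is the muscle gene that sits head to head with Cryab. Its level was 65.8, 45.5, 61.6 and 55.3 CPM in the controls and 42.9, 31.5, 52.3 and 53.1 CPM in EPS replicates 1 to 4. For each replicate number the EPS library was the lower one, which held for 15.8% of all tested genes, but the groups overlapped. The mean was 57.0 ± 8.84 CPM in control and 45.0 ± 10.1 CPM in EPS (SD, n = 4 each), which is -0.38 on the log2 scale (SE 0.19, adjusted p = 0.335). Hspb2 was thus not called in either direction beside the called rise of Cryab. Cryab (ENSMUSG00000032060.9, chr9:50751325-50756636, plus strand) and Hspb2 (ENSMUSG00000038086.3, chr9:50751078-50752354, minus strand) overlap over 1030 bases, of which 252 are exonic in both. The sources used here do not say whether the counting used strand, so fragments from the shared exons cannot be told apart.

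Hspb3, which forms a hetero-oligomer with Hspb2 in muscle, had the lowest mean CPM of the members in both groups (8.29 in control, 11.4 in EPS). In EPS replicates 1 and 2 Hspb6 was lower. Hspb3 measured 10.7, 5.68, 8.50 and 8.27 CPM in the controls and 13.6, 14.2, 8.28 and 9.42 CPM in EPS replicates 1 to 4. EPS replicates 1 and 2 were the highest, the groups overlapped, and control replicate 2 rested on 2 fragments (95% Poisson interval 0.688 to 20.5 CPM, counting error only). On the log2 scale the fold change was 0.35 (SE 0.25, adjusted p = 0.502). Hspb3 (ENSMUSG00000051456.4) lies at chr13:113662896-113663676 on the minus strand.

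Hspb6, also named Hsp20 and known as a target of cyclic nucleotide kinases in muscle, was low as well. It measured 14.5, 19.9, 17.6 and 15.6 CPM in the controls and 11.9, 9.54, 17.4 and 20.1 CPM in EPS replicates 1 to 4. The EPS libraries spanned the control range, with EPS replicate 2 the lowest and EPS replicate 4 the highest of all. The log2 fold change was -0.14 (SE 0.25, adjusted p = 0.818) and became 0.02 without EPS replicate 2. Hspb6 (ENSMUSG00000036854.14, chr7:30552178-30555443, plus strand) shares 122 exonic bases with Proser3 and 3 with Lin37, both on the minus strand. These neighbours had adjusted p values of 0.903 and 0.984 by edgeR's quasi-likelihood test. The miRNA gene Gm38670 inside Hspb6 had 0 fragments in every library.

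Hspb7, the cardiovascular small heat shock protein that binds filamin C, was marked by replicate 2. It measured 175, 51.1, 173 and 180 CPM in the controls and 186, 54.5, 286 and 292 CPM in EPS replicates 1 to 4. Replicate 2 was the lowest library of both groups, from 18 fragments in control (95% Poisson interval 30.3 to 80.8 CPM) and from 679 fragments in EPS. The log2 fold change was 0.44 (SE 0.48, adjusted p = 0.670), and EPS was higher for all 4 replicate numbers, as in 22.0% of tested genes. A replicate block (the replicate number as a term of the edgeR fit) gave 0.45 (adjusted p = 0.0982). With the block and without both libraries of number 2, an alternative chosen after seeing the data, it was 0.49 (adjusted p = 0.0399), past the threshold. Hspb7 (ENSMUSG00000006221.7) lies at chr4:141420779-141425311 on the plus strand, and Hspb8 (ENSMUSG00000041548.4) at chr5:116408491-116422864 on the minus strand.

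**Figure D2:**
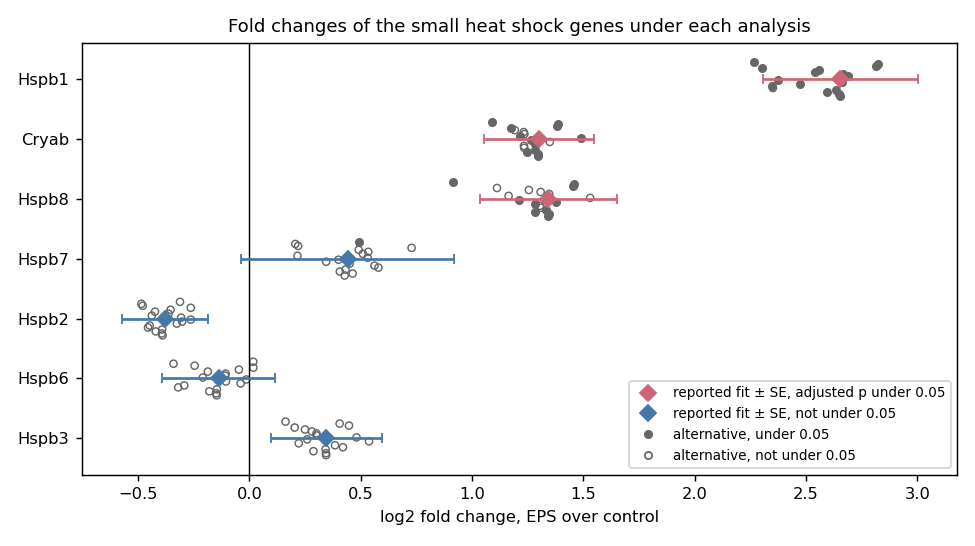
log2 fold change of EPS over control for each small heat shock gene: diamonds with bars are the reported value ± SE, small circles are the values under each alternative analysis, filled where the adjusted p is under 0.05. All circles of Hspb1, Cryab and Hspb8 lie right of 0, and 17, 12 and 10 of their 18 are filled, while Hspb7 has 1 filled circle and Hspb2, Hspb3 and Hspb6 have none.

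Whether 2 members responded differently was tested on their log2 ratio in each library with exact two-sided permutation tests over the 4 and 4 libraries, for all 21 pairs. None of the 21 pairs had an adjusted p under 0.05. The permutations did not keep libraries of equal replicate number together. The smallest p that they allow with 8 libraries, 0.0286, was reached by 10 pairs. It became 0.06 after Benjamini-Hochberg adjustment, and 12 pairs would have been needed to pass. For Hspb1 over Cryab the mean log2 ratio went from -2.01 to -0.80, a difference of 1.21 (exact permutation p = 0.0286, adjusted p = 0.06). For Hspb1 over Hspb8 it went from -0.99 to 0.16, a difference of 1.16 with the same p. For Hspb2 over Cryab it fell from -3.57 to -5.23, a difference of -1.65, again with the same p. In each of these 3 pairs the EPS and control ratios did not overlap. The ratio of Hspb8 to Cryab moved by 0.06 (exact permutation p = 0.800, adjusted p = 0.840).

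Levels of different genes were compared per transcript length, in the deposited FPKM (fragments per kilobase and M fragments). In control the order was Cryab (518 ± 91.3 FPKM), Hspb1 (199 ± 89.2), Hspb8 (189 ± 43.3), Hspb2 (66.5 ± 11.0), Hspb7 (29.3 ± 14.6), Hspb6 (12.3 ± 4.40) and Hspb3 (8.25 ± 1.70; SD, n = 4 each). This order is by the mean. Hspb1 stood above Hspb8 in only 1 of the 4 control libraries, the shallow replicate 2 (323 against 138 FPKM). The libraries' ranges overlapped between Hspb1 and Hspb8, between Hspb7 and Hspb6 and between Hspb6 and Hspb3. In EPS the order was Cryab (1238 ± 335 FPKM), Hspb1 (1066 ± 601), Hspb8 (481 ± 173), Hspb2 (48.9 ± 10.7), Hspb7 (46.2 ± 27.3), Hspb3 (11.2 ± 3.11) and Hspb6 (9.91 ± 3.64; SD, n = 4 each). There, Hspb8 and Hspb2 were the one pair of neighbours in this order with separate ranges. Cryab thus stood first in both groups, and the 3 called genes were the 3 most abundant members before and after stimulation. By CPM per kilobase of the longest transcript, Hspb8 and Hspb1 changed places in control, as did Hspb3 and Hspb6, and Hspb7 stood above Hspb2 in EPS. Among 12278 tested coding genes ranked by mean FPKM, Cryab went from rank 58 to 8, Hspb1 from 202 to 10 and Hspb8 from 214 to 54. The control mean behind the rank of Hspb1 includes the 323 FPKM of replicate 2. Hspb2 went from rank 867 to 1306, and highly expressed genes marked as skipped in the table are not in this ranking.

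The 7 genes together summed to 1122, 1138, 1036 and 793 FPKM in control replicates 1 to 4 and to 3254, 4241, 2209 and 1900.3 FPKM in EPS replicates 1 to 4. All EPS sums lay above all control sums. Within the sum the share of Hspb1 was 19.1 ± 6.55% in control and 34.8 ± 7.05% in EPS, with ranges of 14.4 to 28.4% and 29.1 to 43.7%. The control range was set by the shallow replicate 2, where Hspb1 stood at 323 FPKM. Cryab held 50.6 ± 2.75% in control and 43.8 ± 4.17% in EPS, and Hspb8 held 18.8 ± 4.47% and 16.6 ± 0.305%. Hspb2 made up 6.53 ± 0.559% of the control sum and 1.96 ± 1.01% of the EPS sum (SD, n = 4 each). Shares are tied to one another, so a larger share of 1 gene lowers the others.

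**Figure D3:**
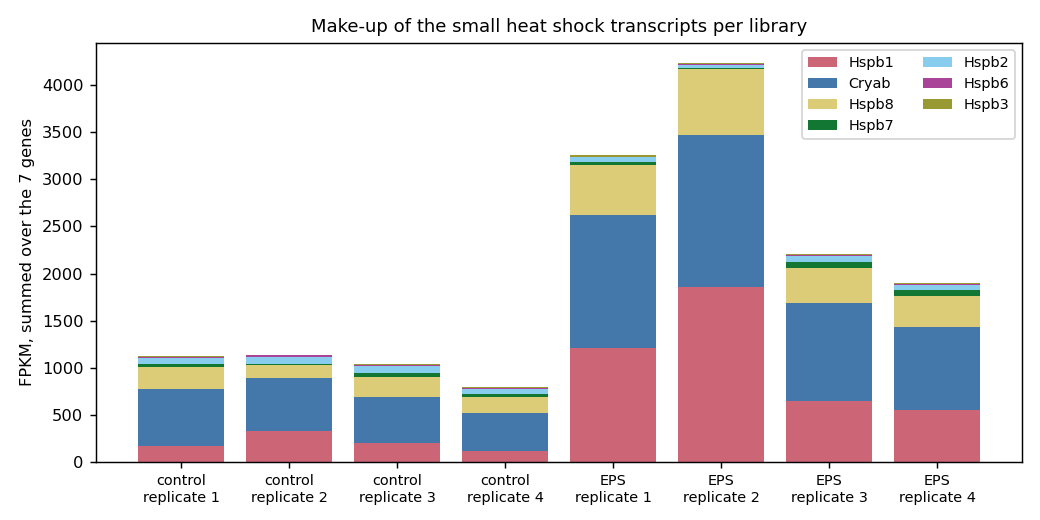
Deposited FPKM of the 7 small heat shock genes stacked for each library, on a linear axis from 0. The EPS sums run from 1900.3 to 4241 FPKM and the control sums from 793 to 1138 FPKM, with Cryab, Hspb1 and Hspb8 making up most of each bar.

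Other genes of the alpha-crystallin domain family were near or at 0. Cryaa, the lens partner of Cryab, had 2 fragments in EPS replicate 3 and none in the other libraries. Hspb9, a testis gene, had 0 fragments in all 8 libraries, and Odf1 of the sperm tail had 2, 1 and 1 fragments in EPS replicates 1 to 3 only. Since a count of 0 allows up to 3 fragments, Hspb9 could stand at up to 0.139 to 0.241 CPM in the deep libraries (counting error only). Hspb11, which carries the family name but belongs to the cilium's transport complex, was tested and had a log2 fold change of -0.54 (SE 0.32, adjusted p = 0.404 by edgeR's quasi-likelihood test).

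The partners of Hspb8 in chaperone-assisted autophagy were followed as a list of 8 genes (median log2 fold change 0.52). Of these, 2 were called higher, 0 lower and 6 did not pass, where 2.30% of all tested genes were called higher and 0.758% lower. Bag3, the co-chaperone that binds Hspb8, measured 127, 125, 112 and 107 CPM in the controls and 740.3, 1398, 264 and 258 CPM in EPS replicates 1 to 4. Its EPS libraries all lay above the controls, with replicates 1 and 2 highest as for Hspb8. Its log2 fold change was 2.50 (SE 0.51, adjusted p = 0.0285), and leaving out any control library or EPS replicate 1 ended the call (adjusted p from 0.0666 to 0.115 by edgeR's quasi-likelihood test). Sqstm1, the autophagy receptor p62, went from 414 ± 59.5 to 1828 ± 714 CPM (SD, n = 4 each; log2 fold change 2.14, SE 0.28, adjusted p = 0.00357), and its gene overlaps Mrnip on the other strand. Hspa8, the constitutive Hsp70 of this complex, was at 0.89 on the log2 scale (adjusted p = 0.0900) and passed in 4 of 18 alternatives, among them DESeq2 (adjusted p = 0.0217) and the replicate block (0.84, adjusted p = 0.0110 by edgeR's quasi-likelihood test).

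Other chaperones and co-chaperones were followed as a list of 16 genes, labelled large inducible chaperones in the figure. Of these, 6 were called higher, 0 lower and 10 did not pass the threshold, where 2.30% of all tested genes were called higher and 0.758% lower. All 16 log2 fold changes were above 0, as were 50.9% over all tested genes, and the median of the list was 1.34. Called members included Hspa1b (log2 fold change 6.71, SE 0.88, adjusted p = 0.00357) and Hspa1a (7.63, SE 1.06, adjusted p = 0.00476), near-identical Hsp70 genes whose fragments may have been split between them. Their partners Dnajb1 (3.88, SE 0.60, adjusted p = 0.00782) and Hsph1 (3.97, SE 0.77, adjusted p = 0.0254) were called as well. With the replicate block 14 of the 16 were called higher, where 7.31% of all tested genes were then called higher and 4.78% lower (1023 and 668 genes).

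The heat shock factor list had 0 of 4 tested genes called in either direction by edgeR, where 3.06% of all tested genes were (median log2 fold change of the list 0.03). At an unadjusted p under 0.05, 1 was higher and 1 lower, where 12.2% and 6.33% of all tested genes were. DESeq2 called 1 higher, where it called 4.62% of all tested genes higher. Hsf1 itself had a log2 fold change of -0.10 (SE 0.20, adjusted p = 0.831). With the replicate block Hsf2, a second heat shock factor, was called higher (0.95, adjusted p = 0.00535) and Hsbp1, which binds and restrains HSF1, was called lower (-0.56, adjusted p = 0.0422 by edgeR's quasi-likelihood test). In the reported fit both missed the threshold, Hsf2 at 1.20 (adjusted p = 0.105) and Hsbp1 at -0.56 (adjusted p = 0.196). Offsets for length and GC content without the block also brought both past it (adjusted p = 0.0466 and 0.0488), and over 18 alternatives Hsf2 passed in 5 and Hsbp1 in 4.

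Of all tested genes, 2.30% were called higher and 0.758% lower in the reported fit. Structural clients of the family, the filament and Z-disc genes, had 1 of 10 tested genes called higher, 0 lower and 9 not past (median log2 fold change -0.28). The called gene was Synm, for the intermediate filament protein synemin, at 11.5 ± 3.30 CPM in control and 27.7 ± 6.02 CPM in EPS (SD, n = 4 each; log2 fold change 1.36, SE 0.25, adjusted p = 0.0201). Its call ended without control replicate 3 (adjusted p = 0.119), control replicate 4 (adjusted p = 0.100) or EPS replicate 1 (adjusted p = 0.0756 by edgeR's quasi-likelihood test). Des, for desmin, was at -0.54 (SE 0.21, adjusted p = 0.197). Flnc, for filamin C, was at 1.20 (adjusted p = 0.107) and passed in 4 of 18 alternatives, among them DESeq2 (adjusted p = 0.0153) and the replicate block (1.08, adjusted p = 0.0248 by edgeR's quasi-likelihood test). By DESeq2 this list had 2 genes called higher and 1 lower, where 4.62% and 2.14% of all tested genes were. Kinases of the p38 and MK2 path, which phosphorylates Hspb1, had 0 of 8 tested genes called by edgeR, with and without the block, and 0 by DESeq2. At an unadjusted p under 0.05, 2 of these kinases were higher and 1 lower, where 12.2% and 6.33% of all tested genes were. Over all alternatives 0 to 1 of them were called higher and 0 to 2 lower. Their median log2 fold change was -0.08, and the most abundant, Mapkapk2, went from 141 ± 39.7 to 121 ± 17.2 CPM (SD, n = 4 each).

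**Figure D4:**
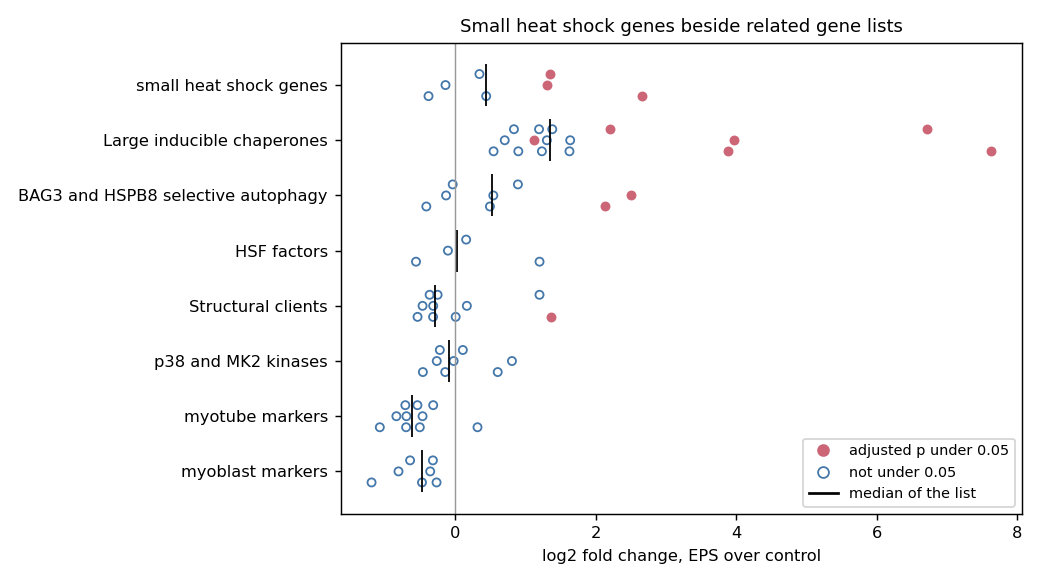
log2 fold change of EPS over control for each tested gene of the small heat shock family and of the related lists; filled points have an adjusted p under 0.05 and vertical bars are list medians. The median is 0.44 for the small heat shock genes, 1.34 for the list labelled large inducible chaperones and -0.61 for the myotube markers.

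The myotube label was checked against its markers. The 10 myotube markers, such as Myh3 and Ckm, summed to 19902 to 21814 CPM in control and to 13488 to 16428 CPM in EPS, without overlap. By edgeR 0 of the 10 were called (3.06% of all tested genes), and 6 were lower at an unadjusted p under 0.05, where 6.33% of all tested genes were. DESeq2 called 4 lower (2.14% of all tested genes), and with the replicate block 7 were called lower (4.78% of all tested genes). The 7 markers of undifferentiated or dividing myoblasts summed to 555 to 942 CPM in control and 331 to 733 CPM in EPS, with 0 called by edgeR, 1 lower at an unadjusted p under 0.05, 1 called lower by DESeq2 and 1 with the block. So the small heat shock genes that rose did so where the sum of the myotube markers was lower, and the part of that shift in the result was not tested. Of the 10 myotube markers 1, Ryr1, had a log2 fold change above 0 (0.32, adjusted p = 0.613 by edgeR's quasi-likelihood test). Among 6 markers of cells that the culture should lack, the macrophage gene Adgre1 was at 0 in all libraries. Their sum was 0 to 1.18 CPM in control and 1.02 to 12.4 CPM in EPS, highest in EPS replicate 2, where Pecam1 stood at 10.8 CPM.

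Transcript length moved with the replicate number in both groups, and in EPS with the libraries in which the called genes were highest. Across 10811 genes, a library's log2 deviation was correlated with log2 transcript length. The correlation was 0.25 and 0.31 in EPS replicates 1 and 2 and -0.36 and -0.32 in EPS replicates 3 and 4. In control replicates 1 to 4 it was -0.03, 0.09, -0.26 and -0.23. With GC content the correlation was 0.28, -0.31, 0.27 and 0.26 in control replicates 1 to 4. It was 0.04, -0.175, 0.28 and 0.22 in EPS replicates 1 to 4. With offsets for length and GC content the log2 fold change was 2.66 for Hspb1 (adjusted p = 0.0413), 1.38 for Hspb8 (adjusted p = 0.0413) and 1.35 for Cryab (adjusted p = 0.0518 by edgeR's quasi-likelihood test), so Cryab lost its call there. With the same offsets and the replicate block all 3 were called, Cryab at 1.26 (adjusted p = 0.000175). The members range in length from 773 bases (Hspb2) to 2769 bases (Hspb7).

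The genes whose levels followed each member most closely were ranked by Pearson's r of log2 CPM over the 7 libraries other than control replicate 2, among 10375 genes. This is a description over libraries of both groups, which share the difference between groups and, in pairs, the replicate number. Hspb1 was closest to Rit1 (r = 0.999), E2f6 (r = 0.998) and its own copy Hsp25-ps1 (r = 0.997). Hspb8 was closest to Slc3a2 (r = 0.999), Ubxn4 (r = 0.998) and Naif1 (r = 0.996), and Cryab to Slc25a37 (r = 0.997), Wdr75 (r = 0.992) and Synm (r = 0.990). Between members, r was 0.981 for Hspb8 and Cryab, 0.968 for Hspb1 and Hspb8 and 0.963 for Hspb1 and Cryab. Hspb2 was closest to Ift22, Shisa4 and Myoz2 (r from 0.996 to 0.997), and it ran against Cryab (r = -0.791). The genes close to Hspb3 included Taf2 (r = 0.996) and Dot1l (r = 0.994). Hspb6 was closest to Zfp637, Jtb and Adh5 (r from 0.988 to 0.992), and Hspb7 to Wdr61, Sall2 and Dxo (r from 0.992 to 0.996).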

How the data were processed

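The RNA of 8 C2C12 libraries (16 samples in GEO, 2 lanes each) was counted and deposited as 1 table per gene and library. Per the submitters' processing notes, STAR 2.5.1, Cufflinks, Cuffdiff 2.2.1 and build mm10 were used. Per the file headers, the authors' table holds estimated counts (fragments per gene, unscaled) and FPKM as scaled by Cuffdiff. The sources used here give neither the strand setting nor the annotation release. Of the deposited counts above 0, 93.3% were whole, and all were rounded. The 46 genes marked as skipped for too many fragments were left out, and 2 other columns of per-library values were not used. Symbols came from GENCODE M21 (48051 of 48432 identifiers matched), and promoters from RefSeq (GRCm38.p6).

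Genes were kept with filterByExpr (minimum count 10, total 15), scaled by TMM and tested with edgeR 4.0.16 (limma 3.58.1, R 4.3.3) without a covariate. The SE is approximate, the log2 fold change over the square root of its F. Log2 CPM used a prior count of 2. The members, lists and tests were chosen with earlier results of these data known. Besides the members, the text names up to 4 called genes of each list with the smallest adjusted p (its most abundant gene where none was called), overlapping genes, sequence copies and the 3 most alike genes. Hsf1, Hsf2, Hspa8, Des, Flnc, Gm9817, Pecam1, Adgre1, Myh3, Ckm and Ryr1 were added after their values were seen. A result under this rule is not reported here. On counts simulated for this comparison (13987 genes), edgeR recovered 32 of 100 genes changed 2-fold and 94 of 100 changed 4-fold, with 10 unchanged genes called. Over 10823 genes, the deviations of libraries from their group's mean correlated at 0.323, 0.287, 0.384 and 0.359 between libraries of equal replicate number 1 to 4. So the numbers were taken to pair the samples in the replicate block and in the differences per replicate number, although the labels do not say what a number marks. The reported fit and the permutation tests did not use this pairing. Control 3 with EPS 4 (0.308) and control 4 with EPS 3 (0.323) correlated about as much. Alternatives were RLE size factors, DESeq2 1.42.0, other filters, limma on log2 FPKM with pseudocounts of 0.1 and 1, the replicate block, offsets for length and GC content, and leaving out each library.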

Additional observations from a re-analysis of the deposited data

Results flagged for a closer look

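Of 14 groups of 4 libraries checked (7 genes in 2 groups), 2 had a library far from the other 3 by Dixon's ratio of the gap to the range, against its 95% critical value; chance marks about 1 in 20 groups. In Hspb7, control replicate 2 lay far below the other controls at 51.1 CPM (ratio 0.942), and its EPS counterpart of the same number was also the lowest of its group. In Cryab, control replicate 1 lay far above the other controls at 939 CPM (ratio 0.846).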

How the results depend on the processing

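The 3 small heat shock genes called higher were also called with RLE size factors, DESeq2, both other filters and the replicate block. The count of 3 became 0 with limma on log2(FPKM + 0.1), 1 with limma on log2(FPKM + 1), and 1 to 3 when each library was left out in turn; members called lower stayed at 0 in every alternative. Under limma with the smaller pseudocount Hspb1 stood at 2.35 on the log2 scale (adjusted p = 0.0554), the one alternative in which it missed the threshold. Hspb6 ran from -0.341 to 0.0179 when each library was left out, reversed without EPS replicate 2 (0.0179), and was 0.0174 with the replicate block without pair 2. No pair of members passed under any alternative. With the replicate block the log2 fold changes of Hspb1, Cryab and Hspb8 were 2.47, 1.28 and 1.28, and no other call among the members changed with it.

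Over all tested genes, 322 were higher and 106 lower. The counts were 633 and 294 with DESeq2, 94 and 29 with limma on log2(FPKM + 0.1), 130 and 48 with limma on log2(FPKM + 1), 1023 and 668 with the replicate block, 1011 and 1075 with the block and offsets for length and GC content, and 1290 and 1167 with the block without pair 2 (chosen after seeing the data). Lower calls were 162 without a filter and 297 with the offsets alone. Leaving out each library gave 92 to 427 higher and 22 to 167 lower; the higher count fell to 98, 92 and 94 without control replicates 1, 3 and 4 and to 111 without EPS replicate 1. The causes were not tested. Over all alternatives, the calls among the 16 other chaperones and co-chaperones ran from 3 to 16 higher. Among the 8 autophagy partners the calls ran from 1 to 4 higher and 0 to 1 lower. Calls ran among the structural clients from 0 to 2 higher and 0 to 4 lower, and among myotube markers from 0 to 7 lower. Among the p38 and MK2 kinases 0 to 1 were called higher and 0 to 2 lower, and among the heat shock factors 0 to 1 in each direction.

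Control replicate 2 limits what can be said of Hspb3, Hspb6 and Hspb7, which rest there on 2, 7 and 18 fragments. The FPKM columns carry Cuffdiff's own scaling and length estimates, so the tests on them are not a pure change of unit.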
